A study of Mus musculus with 20 samples.

Results

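Liver RNA of 16 male mice was compared between 2 lean strains that the series calls diabetes-susceptible, DBA/2J (DBA) and C3HeB/FeJ (C3H), and 2 lean strains it calls resistant, C57BL/6 (B6) and 129P2/OlaHsd (129Ola), with 4 mice in each strain. These are 16 of the 20 mice of the series, chosen by strain label alone; the obese NZO mice were left out. All 16 mice ate a diet rich in fat (45%), and livers were collected in week 6, which can be read from the labels as age or as time on the diet. Each mouse was measured on 1 Agilent array with 1 dye. The strains are inbred lines that differ throughout their genomes, so a strain is the replicate of its class, and each class holds 2 strains. Every level below is log2 of the processed signal relative to the 75th percentile of its own array, and every difference is a log2 difference with its standard error (SE) from limma, with 4 mice per strain.

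The susceptible strains were set against resistant ones in 2 pairs, DBA against B6 and C3H against 129Ola, each measured with 1 version of the image extraction software. The pairs share no mouse. A gene was called alike when the adjusted p (limma, Benjamini-Hochberg over 20342 genes) was below 0.05 in both pairs with the same sign, and opposite when it was below 0.05 in both pairs with different signs and also below 0.05 for the difference of the pairs. The mean of the pairs is the class contrast.

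As background, the liver makes cholesterol and fatty acids under the control of the sterol regulatory element binding proteins (SREBPs), burns fatty acids in mitochondria and peroxisomes under the nuclear receptor PPARA, and clears hormones, bile acids and foreign compounds with cytochrome P450s and conjugating enzymes. Its resident macrophages, the Kupffer cells, line the sinusoids beside endothelial cells, and stellate cells lay down collagen. Inbred strains of mice are known to carry different alleles and copy numbers in many of these gene families.

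Between 40.0 and 59.0% of probes were well above background per array, with 50.2 to 53.3% in DBA, 51.9 to 59.0% in B6, 43.2 to 46.8% in C3H and 40.0 to 43.3% in 129Ola. Hepatocyte markers were well above background on all arrays (Alb, Apoa1, Ttr, Tat and Cps1). All C3H arrays were on 1 slide and scanned on 1 day, and the 129Ola arrays on 2 other slides on another day, so slide, scan day and strain cannot be told apart in that pair. DBA and B6 shared no slide, with 3 slides for each strain, so slide and strain cannot be told apart there either. These 2 strains shared 2 scan days, with DBA 9 on the first and DBA 5 on the second. DBA 8 and DBA 15 were scanned on a day without B6 arrays. Each shared day thus holds 1 DBA mouse. Within the first and second, DBA minus B6 was -5.10 and -4.76 for Folr2 and 3.17 and 3.60 for Ugt1a10, described below. DBA 5 stood apart, with correlations of 0.975 to 0.978 to the other DBA mice, which correlated at 0.990 to 0.993 among themselves.

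The promoter of Hmgcs1, with those of Sc5d and Msmo1, is shown because these are the members of the cholesterol list that were called in both pairs, and Hmgcs1 and Sc5d differed in opposite directions in the pairs. The windows are from RefSeq (GRCm38.p6), 250 bases before to 50 after the annotated start, 5′ to 3′ on the gene's strand. Capitals mark a match to TCACNCCAC, the core of a sterol regulatory element, searched on both strands. The Hmgcs1 window lies at chr13:119690101-119690400 on the plus strand, that of Sc5d at chr9:42264251-42264550 on the minus strand and that of Msmo1 at chr8:64733529-64733828 on the minus strand.
Hmgcs1: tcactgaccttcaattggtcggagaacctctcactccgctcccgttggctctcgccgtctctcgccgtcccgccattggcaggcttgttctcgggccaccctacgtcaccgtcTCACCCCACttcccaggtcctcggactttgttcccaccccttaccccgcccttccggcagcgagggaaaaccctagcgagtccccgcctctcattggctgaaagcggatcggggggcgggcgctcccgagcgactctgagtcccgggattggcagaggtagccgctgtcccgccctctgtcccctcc
Sc5d: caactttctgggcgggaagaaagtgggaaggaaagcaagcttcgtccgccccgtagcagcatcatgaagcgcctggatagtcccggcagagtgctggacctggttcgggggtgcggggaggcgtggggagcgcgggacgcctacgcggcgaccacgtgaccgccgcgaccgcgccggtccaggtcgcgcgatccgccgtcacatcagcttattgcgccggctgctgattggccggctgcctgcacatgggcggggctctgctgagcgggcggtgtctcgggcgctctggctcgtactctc
Msmo1: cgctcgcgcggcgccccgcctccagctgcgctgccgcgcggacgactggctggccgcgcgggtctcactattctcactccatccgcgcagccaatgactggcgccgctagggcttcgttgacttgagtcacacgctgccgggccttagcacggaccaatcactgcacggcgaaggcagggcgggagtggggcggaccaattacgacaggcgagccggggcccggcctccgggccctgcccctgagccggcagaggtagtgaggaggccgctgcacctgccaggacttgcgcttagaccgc
The Hmgcs1 window holds 1 match, on the plus strand and starting 137 bases before the start site, and the other two windows hold none. Of all 32851 windows of this length, 1.24% hold the motif. A match is a description of the letters and not a site.

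Most differences between a susceptible and a resistant strain were not shared by the pairs. In DBA against B6, 1550 genes were higher and 1758 lower (7.62% and 8.64% of genes tested). In C3H against 129Ola, 3285 were higher and 4863 lower (16.1% and 23.9%). Of the 1787 genes called in both pairs, 896 were alike and 891 opposite. The alike genes were 306 higher in DBA and C3H (1.5% of genes tested) and 590 lower (2.9%). The opposite genes were 497 higher in DBA and lower in C3H (2.44%) and 394 lower in DBA and higher in C3H (1.94%). Alike genes were 27.1% of the DBA calls and 11.0% of the C3H calls, and opposite genes 26.9% and 10.9%. Across genes, which are not independent replicates, the pair differences had a Pearson correlation of -0.039. The mice did not overlap in either pair for 956 genes with the same direction and 890 with opposite directions (4.7% and 4.38%). Without DBA 5, the alike genes were 329 higher and 569 lower, and the opposite genes 698 and 670. With slide as a random block the alike genes were 152 higher and 303 lower, and the opposite genes 249 and 197. The balance of directions in C3H against 129Ola depends on the scaling: with the percentile taken only from probes that all 16 arrays detected, 4641 genes were higher and 2637 lower (63.8% higher, against 40.3%), and the median difference over all genes moved to 0.08 from -0.08. With that scaling 331 opposite genes were higher in DBA and 552 lower (37.5% higher in DBA, against 55.8%).

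The class contrast called 2318 genes higher and 3400 lower (11.4% and 16.7%), but this count mixes shared and unshared differences. With the percentile from probes that all 16 arrays detected, 2904 were higher and 2665 lower, so that the balance turned. Of these 5718 genes, 896 were alike. Another 3253 were called in C3H against 129Ola only and 994 in DBA against B6 only, and 1223 had opposite signs in the pairs. The difference of the pairs itself was called for 3407 genes in the positive direction and 2628 in the negative one (16.7% and 12.9%), and with that other percentile for 1825 and 3843, a balance that also turned. Of the alike genes, 225 were also called in the difference of the pairs, so that they differed in size between the pairs while sharing a sign.

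**Figure D1:**
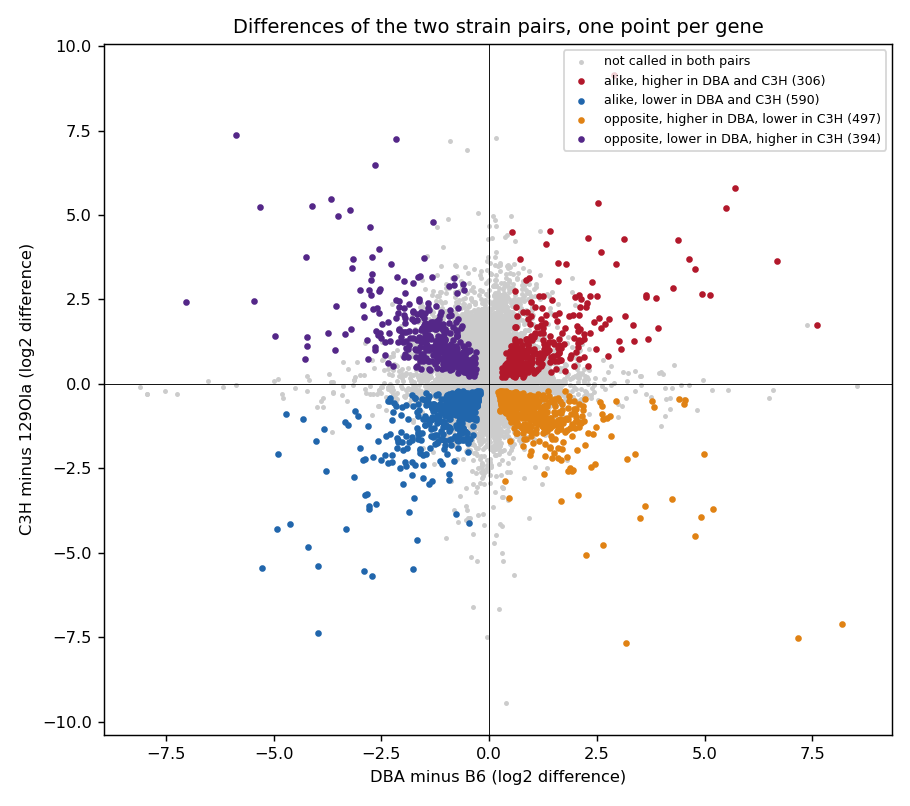
Each point is 1 of 20342 genes, with its log2 difference for DBA minus B6 on the x axis and for C3H minus 129Ola on the y axis; colours mark genes called in both pairs. The 896 alike genes lie at the upper right and lower left and the 891 opposite genes at the lower right and upper left, with a correlation of -0.039 over all genes.

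Among genes with a symbol and above background in all 4 strains, the largest shared difference was a lower level of Folr2. Folr2 is a folate receptor of resident macrophages (probe at chromosome 7, 108988771 to 108988830 in mm9). Folr2 had levels of -2.24, -2.39, -2.40 and -2.25 in DBA mice 5, 8, 9 and 15, against 2.47, 2.61, 2.58 and 2.78 in B6 mice 9, 10, 11 and 15. In C3H mice 1, 2, 3 and 5 it had levels of -1.32, -2.14, -1.94 and -2.02, against 2.80, 2.58, 2.17 and 2.23 in 129Ola mice 4, 5, 7 and 9. Every DBA and C3H mouse lay far below every B6 and 129Ola mouse. Folr2 has no second tested probe. The difference was -4.93 ± 0.17 in DBA (adjusted p = 6.17e-11) and -4.30 ± 0.17 in C3H (adjusted p = 2.69e-10), and the difference of the pairs was not called (adjusted p = 0.0632).

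Cyp2c23 and Cyp3a13, both cytochrome P450s, were lower in both susceptible strains. Cyp2c23, an epoxygenase of arachidonic acid, had levels of 2.86, 3.50, 3.36 and 3.58 in DBA mice, against 6.08, 6.27, 6.17 and 5.95 in B6 mice. Its levels were 2.71, 3.25, 2.92 and 3.11 in C3H mice, against 6.87, 6.74, 6.49 and 6.66 in 129Ola mice. The DBA difference was -2.79 ± 0.16 (adjusted p = 1.08e-08) and the C3H difference -3.69 ± 0.16 (adjusted p = 5.29e-10), larger in C3H (difference of the pairs 0.91, adjusted p = 0.00749). No second probe of Cyp2c23 was tested. Cyp3a13, a drug-metabolising P450 of liver and gut, was at 1.29, 1.66, 1.58 and 1.52 in DBA mice, against 4.0, 3.65, 3.86 and 3.93 in B6 mice, and at 2.17, 1.97, 2.18 and 1.53 in C3H mice, against 4.34, 4.04, 4.29 and 4.52 in 129Ola mice. Its differences were -2.34 ± 0.15 in DBA and -2.33 ± 0.15 in C3H, and another probe of the gene gave -2.19 and -2.03.

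Another 4 genes with large shared falls had SEs between 0.15 and 0.24. They were Leo1, a subunit of the PAF1 transcription elongation complex (-2.78 in DBA, -3.60 in C3H), Mrpl35, a protein of the mitochondrial ribosome (-2.62 and -3.55), Gmds, an enzyme of GDP-fucose synthesis (-2.69 and -2.16), and Hdc, which makes histamine (-2.40 and -2.10). On the C3H arrays, Mrpl35 was above background on 1 of 4 and Leo1 and Hdc on 3 of 4. None of them has a second tested probe.

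Among genes with a symbol, higher in both susceptible strains and above background in all 4, Gbp11 was first by the smaller of its pair differences. Gbp11 is a guanylate binding protein. It had levels of 4.27, 4.62, 4.90 and 4.29 in DBA mice, against 2.45, 0.63, 2.53 and 2.13 in B6 mice, and of 4.30, 4.36, 4.49 and 4.64 in C3H mice, against 3.97, -0.36, -0.05 and -1.39 in 129Ola mice. All DBA mice lay above all B6 mice, and 129Ola 4 lay near the C3H mice while the other 129Ola mice did not. The differences were 2.59 ± 0.83 (adjusted p = 0.0469) and 3.90 ± 0.83 (adjusted p = 0.0024), and the alike call was lost under 17 of 27 alternatives, among them slide as a random block.

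Adgrv1, a large adhesion receptor of sensory cilia, was higher in DBA, with levels of 4.59, 4.89, 4.88 and 4.61 in DBA mice, against 1.53, 1.08, 0.44 and 0.45 in B6 mice (difference 3.87 ± 0.49, adjusted p = 4.03e-05). Its levels were 4.68, 4.97, 5.18 and 4.22 in C3H mice, against 2.87, 3.33, 2.30 and 0.35 in 129Ola mice (difference 2.56 ± 0.49, adjusted p = 0.00115). The strains did not overlap. Osbpl3, of the oxysterol-binding protein family, was at -1.14, 0.11, 0.03 and 0.02 in DBA mice, against -2.05, -2.65, -2.17 and -2.46 in B6 mice, and at -0.74, 0.04, 0.33 and -0.36 in C3H mice, against -2.12, -2.23, -2.66 and -1.90 in 129Ola mice. Its differences were 2.09 ± 0.29 and 2.05 ± 0.29, with DBA 5 lowest of its strain, and another probe gave 1.95 and 1.89.

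Dnaic1, an axonemal dynein chain of cilia, differed by 2.79 ± 0.27 in DBA and 1.92 ± 0.27 in C3H. Tmod4, a cap of actin filaments best known from muscle, differed by 1.96 ± 0.21 and 2.06 ± 0.21. Trpm6, a magnesium channel, differed by 2.54 ± 0.38 and 1.95 ± 0.38, with 3 of 4 B6 arrays and 1 of 4 129Ola arrays above background. Wfdc15b differed by 3.14 ± 0.22 and 2.02 ± 0.22, with 1 of 4 129Ola arrays above background. Raet1e, a ligand of the natural killer receptor NKG2D, differed by 2.12 ± 0.48 and 2.29 ± 0.48, a call lost with scan day as a block.

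**Figure D2:**
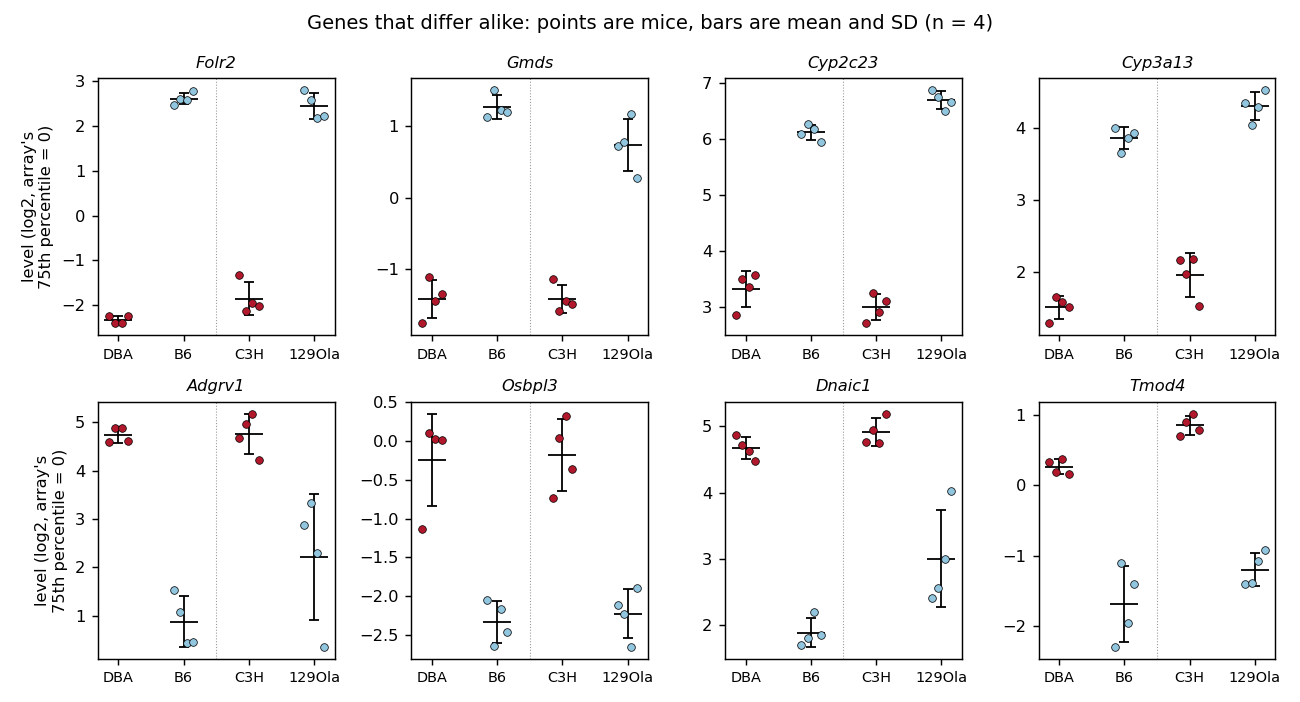
Levels (log2, array's 75th percentile at 0) of 8 alike genes in each mouse of DBA, B6, C3H and 129Ola; bars are mean and SD of 4 mice. Folr2 lies between -2.40 and -1.32 in DBA and C3H mice and between 2.17 and 2.80 in B6 and 129Ola mice.

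For 7 alike higher genes with a symbol no array of B6 or 129Ola was well above background. For 14 alike lower genes with a symbol no array of DBA or C3H was. Unnamed, predicted and RIKEN features were left out of these 2 counts. The folds of such genes are lower bounds, set against the dimmest signal well above background on each array. Corin, a protease that activates natriuretic peptide, had levels of 0.28, 0.52, 0.50 and 0.49 in DBA mice and -1.77, -0.94, -0.76 and -1.39 in C3H mice, and was not well above background on any B6 or 129Ola array. It was at least 23-fold higher in DBA than in B6 and at least 2.82-fold higher in C3H than in 129Ola (adjusted p = 8.57e-12 and 5.17e-09). Pianp was at least 8.28-fold and 2.52-fold higher. Kcnk1, a potassium channel, was at least 1.55-fold and 5.71-fold higher, and Sapcd1, above background on 1 of 4 DBA arrays, at least 1.09-fold and 2.01-fold. Kcnk1 lost its call under 5 of 27 alternatives, among them slide as a random block and scan day as a block. Sapcd1 lost its call after normexp background correction. Olfr1033, an olfactory receptor, was at least 10.6-fold lower in DBA than in B6 and at least 11.1-fold lower in C3H than in 129Ola, and its neighbour Olfr1036 at least 3.08-fold and 1.46-fold lower. Tmsb15b1, an actin-binding thymosin, was at least 7.32-fold and 12.7-fold lower. Cela2a, a pancreatic elastase, was at least 1.72-fold and 1.94-fold lower. Of the 4 pancreas markers, Cela1 was not called in either pair, Ins2 was higher in C3H alone (1.37), and Prss1 and Cpa1 did not pass the filter.

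Cyp4a14, a fatty acid omega-hydroxylase and a target of PPARA, had levels of 1.20, 4.11, 3.36 and 2.29 in DBA mice, against -0.45, 0.36, -1.31 and -0.35 in B6 mice. It had -4.20, -2.78, -0.64 and -3.24 in C3H mice, against 3.70, 4.26, 6.51 and 5.34 in 129Ola mice. All DBA mice lay above all B6 mice and all C3H mice, of which 2 of 4 were above background, below all 129Ola mice. The differences were 3.18 ± 0.79 (adjusted p = 0.0117) and -7.67 ± 0.79 (adjusted p = 6e-06), and the difference of the pairs was 10.84 (adjusted p = 6.15e-06). The opposite call was lost with scan day as a block. DBA minus B6 was 3.35 on the first shared day (DBA 9 alone) and 2.08 on the second (DBA 5 alone).

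Ugt1a10, a glucuronidating enzyme, had levels of 4.85, 5.02, 4.70 and 4.98 in DBA mice, against 1.15, 1.61, 1.35 and 1.45 in B6 mice, and of -0.20, -0.43, -0.42 and -0.33 in C3H mice, against 3.69, 3.45, 3.51 and 3.79 in 129Ola mice. Its differences were 3.49 ± 0.11 and -3.96 ± 0.11. Another probe gave 2.07 and -2.04. Ugt1a genes share exons, so that a probe may not tell them apart. Sult1e1, which sulfates estrogens, had levels of -0.90, 0.36, -0.52 and -0.59 in DBA mice, against -2.12, -4.09, -2.78 and -1.65 in B6 mice. It had -3.61, -3.23, -2.45 and -3.72 in C3H mice, against 1.36, 2.18, 1.69 and 2.05 in 129Ola mice, with differences of 2.25 ± 0.45 and -5.07 ± 0.45 and 1 of 4 C3H arrays above background. Sfi1, a centrosome protein, differed by 4.99 ± 0.21 and -2.09 ± 0.21. Cyp2b10, a P450 induced by drugs, differed by 3.39 ± 0.68 and -2.07 ± 0.68, with 1 of 4 B6 and 2 of 4 C3H arrays above background and the call lost under 5 of 27 alternatives. Serpina3i, a serine protease inhibitor, differed by 4.78 ± 0.18 and -4.51 ± 0.18, but another probe of it fell in DBA (-1.93) and gave -0.89 in C3H (adjusted p = 0.0796).

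In the other direction, Klk1b3, a tissue kallikrein, had levels of -2.98, -3.07, -3.44 and -2.84 in DBA mice, against -0.04, 0.18, -0.26 and -0.23 in B6 mice, and of 1.07, 1.01, 0.86 and 1.18 in C3H mice, against -1.45, -1.80, -1.62 and -2.14 in 129Ola mice. Its differences were -3.00 ± 0.16 and 2.78 ± 0.16. Klk1b8, above background on 1 of 4 129Ola arrays, differed by -2.73 ± 0.20 and 3.08 ± 0.20. They lie on chromosome 7 in 2 runs of consecutive opposite genes, Klk1b8, Klk1b26 and Egfbp2 (51209619 to 51272336) and Klk1b22, Klk1b24, Klk1b3 and Klk1b4 (51371648 to 51466457). Kallikrein genes are near-identical copies, so that a probe may read more than 1 of them. Ripply2, a transcriptional repressor known from somite formation, differed by -2.72 ± 0.17 and 3.77 ± 0.17, with 2 of 4 129Ola arrays above background. Crygn, a crystallin, differed by -2.72 ± 0.43 and 3.24 ± 0.43, with 2 of 4 DBA and 2 of 4 129Ola arrays above background. For Crygn, DBA minus B6 was -0.85 on the first shared day (DBA 9 alone) and -2.87 on the second (DBA 5 alone). Olfr1535, above background on 1 of 4 129Ola arrays, differed by -3.23 ± 0.45 and 5.15 ± 0.45. Scd3, a stearoyl-CoA desaturase, differed by -2.56 ± 0.54 and 2.76 ± 0.54, while 1 of its other 2 probes gave -1.95 and 1.55 and the other -0.07 and 0.04.

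**Figure D3:**
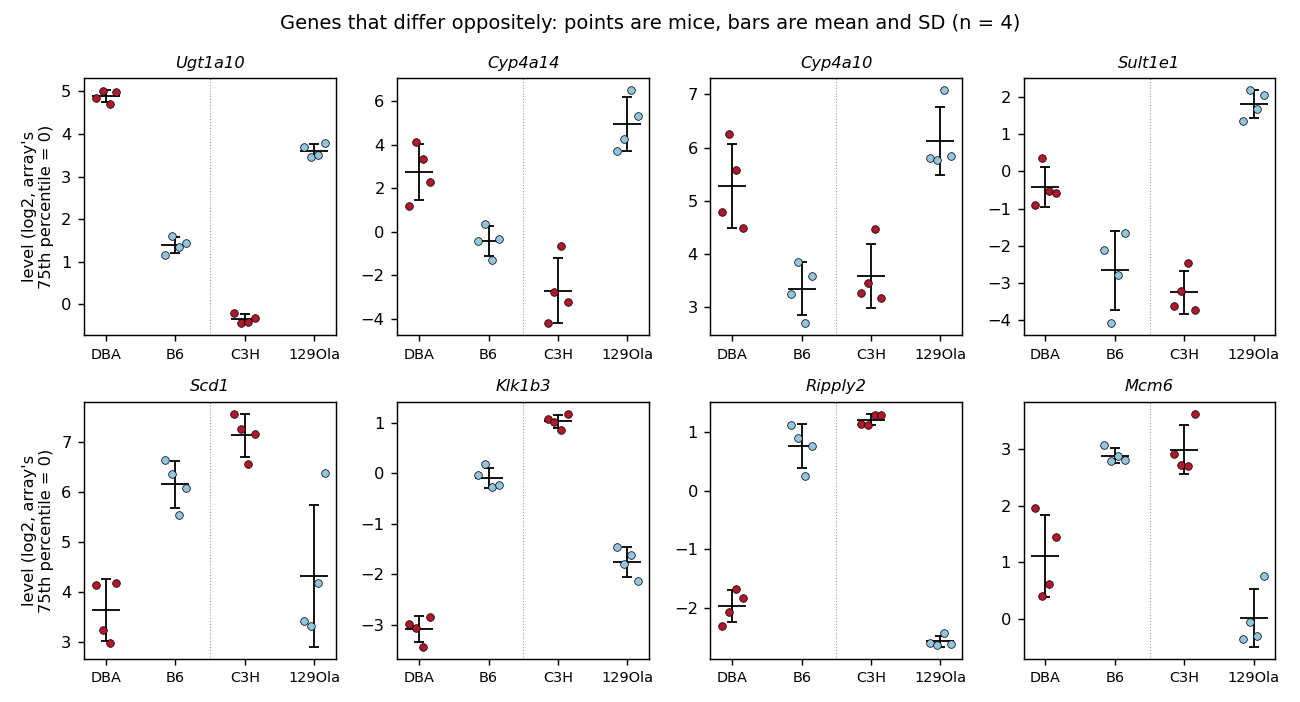
Levels (log2, array's 75th percentile at 0) of 8 opposite genes in each mouse of DBA, B6, C3H and 129Ola; bars are mean and SD of 4 mice. Ugt1a10 lies between 4.70 and 5.02 in DBA mice and between 1.15 and 1.61 in B6 mice, but between -0.43 and -0.20 in C3H mice and between 3.45 and 3.79 in 129Ola mice.

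Among 25 genes for making or taking up cholesterol, 23 were higher and 0 lower in C3H against 129Ola, with a median difference of 1.90, beside -0.08 over all genes tested. In DBA against B6, 2 were higher and 2 lower, with a median of 0.25, beside 0.01 over all genes. The shares called over all genes were 16.1% higher and 23.9% lower in C3H, and 7.62% higher and 8.64% lower in DBA. The summed level of the list, a sum of linear signals relative to the 75th percentile, lay between 935 and 1120 in DBA mice and between 878 and 1040 in B6 mice, and between 1580 and 1990 in C3H mice and 838 and 1080 in 129Ola mice. Only the C3H mice stood apart. Sqle, the squalene epoxidase, differed by 4.67 in C3H and by 0.01 in DBA. Hmgcs1, the HMG-CoA synthase of the promoter above, had levels of 5.32, 4.68, 5.01 and 5.30 in DBA mice, against 5.80, 6.15, 5.47 and 5.87 in B6 mice, and of 6.40, 6.92, 6.11 and 6.66 in C3H mice, against 3.82, 3.63, 3.84 and 4.0 in 129Ola mice. It was opposite, with differences of -0.75 ± 0.19 and 2.70 ± 0.19, as was Sc5d, a late enzyme of the pathway (-0.57 ± 0.18 and 1.04 ± 0.18). Msmo1, which removes a methyl group from sterols, was the 1 alike member (0.59 ± 0.18 and 2.74 ± 0.18). The opposite call of Hmgcs1 was lost with slide as a random block and with scan day as a block. Sc5d lost its call under 14 of 27 alternatives, slide as a random block among them. Msmo1 lost its alike call under 9, among them quantile normalization, the authors' value table and leaving out DBA 5.

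In fatty acid synthesis and desaturation, 16 of 21 genes were higher and 1 lower in C3H, and 1 was lower and none higher in DBA, beside the shares over all genes of 16.1% and 23.9% in C3H, and 8.64% lower and 7.62% higher in DBA. Fasn, the fatty acid synthase, differed by 2.20 in C3H and -0.09 in DBA. Scd1, the main hepatic stearoyl-CoA desaturase, was the opposite member. It had levels of 4.14, 3.24, 2.98 and 4.19 in DBA mice, against 6.65, 6.36, 5.54 and 6.08 in B6 mice, and of 7.57, 7.26, 6.56 and 7.16 in C3H mice, against 3.42, 3.32, 4.18 and 6.38 in 129Ola mice. The strains did not overlap in either pair, and 129Ola 9 lay closest to the C3H mice. With slide as a random block, 8 members of this list were higher in C3H, beside 1528 over all genes tested, against 3285 without the block.

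Among 34 PPARA targets and other genes of fatty acid oxidation, 11 were higher and 2 lower in DBA, while 3 were higher and 20 lower in C3H, with medians of 0.32 and -0.45. Over all genes tested, 7.62% were higher and 8.64% lower in DBA, and 16.1% higher and 23.9% lower in C3H. Opposite members numbered 8, all higher in DBA and lower in C3H (2.44% of all genes). They were 10 without DBA 5 and 4 with slide as a random block. Over all genes such calls numbered 497, then 698 without DBA 5 and 249 with the slide block. Of the 8 opposite members, 5 are Cyp4a genes. With Cyp4a12b they form a run of 6 consecutive tested genes on chromosome 4 (115005258 to 115294911) that were all opposite. Cyp4a12b lost its opposite call after quantile normalization, in the authors' value table and with slide as a random block, so the run was broken there. Cyp4a10 had levels of 4.79, 6.25, 5.58 and 4.49 in DBA mice, against 3.25, 3.84, 2.69 and 3.59 in B6 mice, and of 3.27, 3.45, 4.46 and 3.16 in C3H mice, against 5.81, 5.76, 7.08 and 5.84 in 129Ola mice. Its differences were 1.94 ± 0.42 and -2.53 ± 0.42, and its other 2 probes gave 1.69 and -4.43, and 1.93 and -2.57. Cyp4a31 differed by 1.93 ± 0.41 and -2.57 ± 0.41, Cyp4a32 by 2.49 ± 0.37 and -1.28 ± 0.37, and Cyp4a12b by 1.66 ± 0.12 and -0.50 ± 0.12. Cyp4a genes are close copies, so that a probe may read more than 1 of them. The other opposite members were Acaa1b, a peroxisomal thiolase (0.77 and -0.57), and the mitochondrial dehydrogenases Acadm (0.42 and -0.85) and Acads (0.37 and -0.45). Slc25a20, the carnitine carrier, was alike and lower (-0.60 ± 0.15 and -0.64 ± 0.15).

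**Figure D4:**
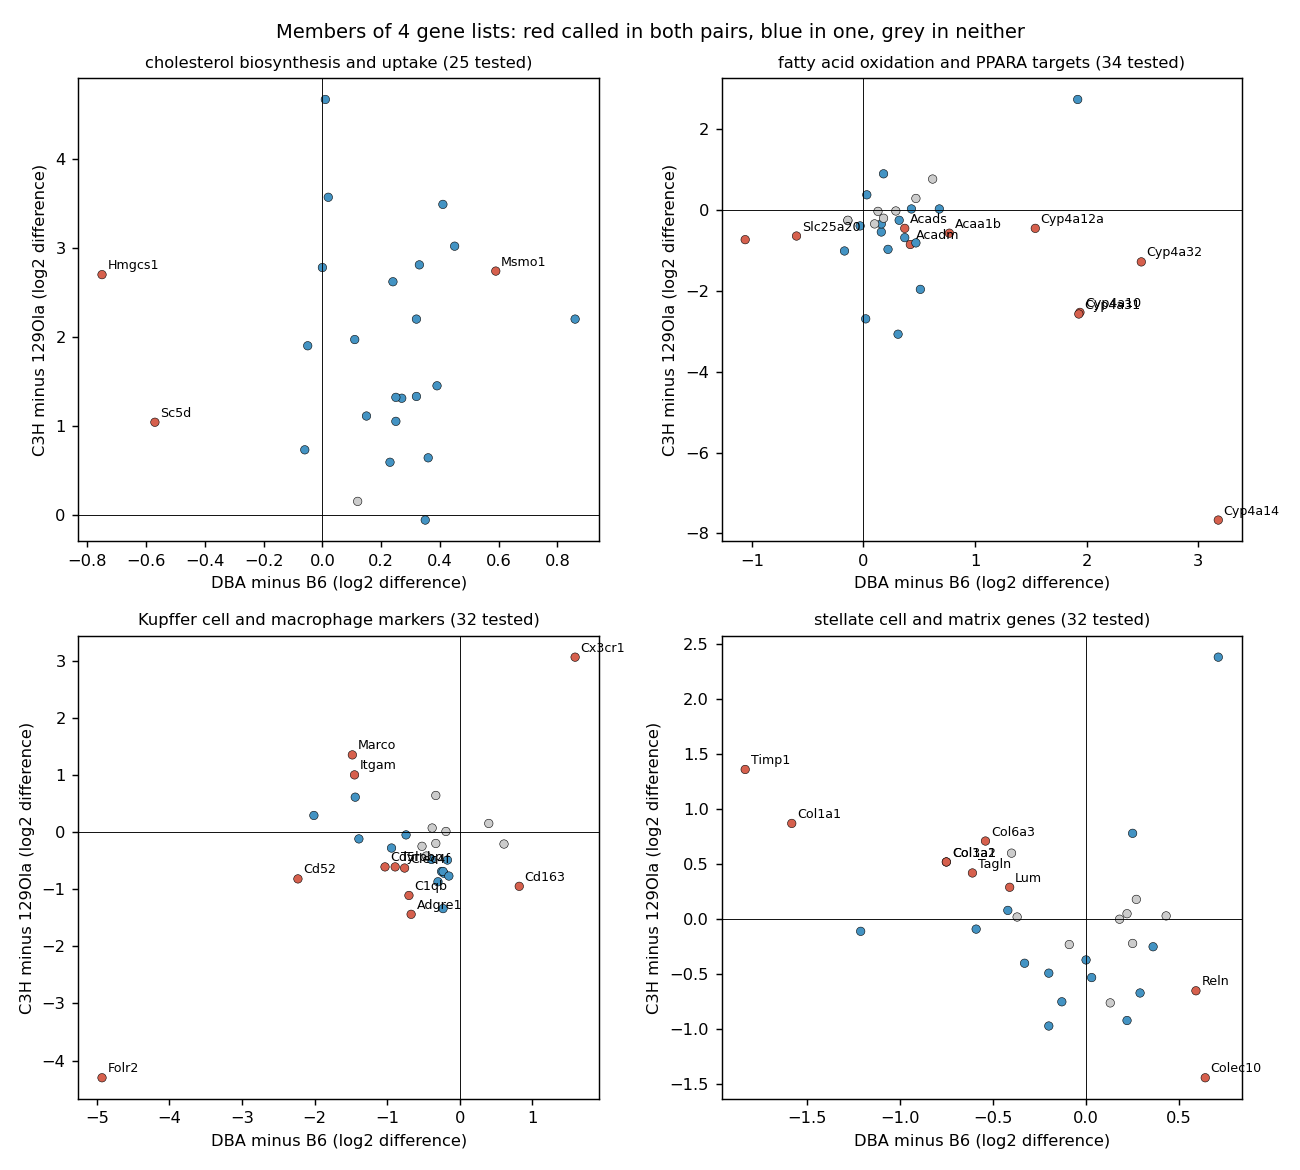
Members of 4 gene lists, each a point at its log2 difference for DBA minus B6 (x axis) and C3H minus 129Ola (y axis); red points were called in both pairs. Of the cholesterol genes 23 of 25 lie above 0 as calls on the y axis, the 8 opposite genes of fatty acid oxidation lie at the lower right, and Slc25a20 lies at the lower left.

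Of 31 drug-metabolising P450s, 7 were opposite, all higher in DBA and lower in C3H (2.44% of all genes). They were 3 with slide as a random block, which left 249 of 497 such calls over all genes. Cyp2c38 differed by 0.97 ± 0.14 and -1.55 ± 0.14, and Cyp1a2, which metabolises caffeine and aromatic amines, by 2.23 ± 0.12 and -0.44 ± 0.12. Cyp1a2 lost its opposite call under 4 of 27 alternatives, among them quantile normalization and slide as a random block. The alike members were Cyp3a13, above, and Cyp3a44, mostly a female P450, which was at least 15.9-fold higher in DBA and at least 2.14-fold higher in C3H. Cyp3a44 lost its call with slide as a random block and after normexp background correction. Of 35 conjugation enzymes, 5 were opposite in that direction, again beside 2.44% of all genes (2 with slide as a random block), led by Gstt2 (1.28 ± 0.19 and -2.66 ± 0.19), and Gsta4, which detoxifies lipid peroxidation products, differed by 1.14 ± 0.12 and -0.98 ± 0.12. Gsta2 was alike, with levels of -1.40, -0.55, -0.74 and 0.20 in DBA mice, against 1.12, 0.85, 1.19 and 1.34 in B6 mice, and of -2.45, -1.91, -2.10 and -3.00 in C3H mice, against 3.44, 2.83, 2.86 and 3.30 in 129Ola mice. Its fall was 1.75 ± 0.30 in DBA and 5.47 ± 0.30 in C3H, and the difference of the pairs was called.

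Of 29 antioxidant genes, 4 were alike and lower, beside 2.9% of all genes, and with slide as a random block 1 was. That block left 303 of 590 alike and lower calls over all genes. Gpx6 lost the call under 8 of 27 alternatives and Gpx7 under 12. Among the 4 was Gclm, a subunit of the glutathione synthesis enzyme (-0.71 ± 0.12 and -0.60 ± 0.12). Nnt, the mitochondrial transhydrogenase, was opposite, with levels of 4.94, 5.33, 5.20 and 5.05 in DBA mice, against 3.54, 3.63, 3.37 and 3.18 in B6 mice, and of 4.83, 5.05, 5.07 and 5.13 in C3H mice, against 5.63, 5.62, 5.50 and 5.73 in 129Ola mice. Its B6 mice stood below all others. Another Nnt probe gave 3.20 and -1.02, and the last gave 0.51 (adjusted p = 0.185) and -0.71.

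Of 32 Kupffer cell and macrophage genes, 14 were lower and 2 higher in DBA, and 16 lower and 3 higher in C3H, with medians of -0.43 and -0.45. Over all genes tested, 8.64% were lower and 7.62% higher in DBA, and 23.9% lower and 16.1% higher in C3H. Alike and lower members numbered 7, beside a background of 2.9% of genes, and Cx3cr1, a chemokine receptor of monocytes and macrophages, was alike and higher (1.59 ± 0.35 and 3.06 ± 0.35). Opposite members numbered 3, of which 1 was higher in DBA (2.44% of all genes) and 2 lower in DBA (1.94%). The lower genes were Folr2, Cd52, Adgre1, Clec4f, Cd5l, C1qb and Tyrobp. Cd52, a surface glycoprotein of leukocytes, differed by -2.23 ± 0.23 and -0.82 ± 0.23, Adgre1, an adhesion receptor that marks macrophages, by -0.67 and -1.44, and Clec4f, a lectin of Kupffer cells, by -0.76 and -0.63. The summed level of 9 Kupffer and macrophage markers lay between 139 and 161 in DBA mice and 209 and 312 in B6 mice, and between 94.1 and 171 in C3H mice and 144 and 208 in 129Ola mice. In the second pair the ranges overlap, and the part of cell numbers in these results was not tested. In bulk tissue, fewer cells of a type and less RNA per cell cannot be told apart. With slide as a random block 1 member was alike and lower, and without B6 15, which was highest of its strain in C1qb (3.91) and H2-Aa (2.48), there were 5. Over all genes alike and lower calls numbered 590, then 303 with the slide block and 518 without B6 15. Marco, a scavenger receptor (-1.48 ± 0.41 and 1.35 ± 0.41), and Itgam, an integrin of myeloid cells (-1.45 ± 0.19 and 1.00 ± 0.19), were opposite, but 2 other Itgam probes were not called in either pair. Marco lost its call under 9 of 27 alternatives, slide as a random block among them, and its C3H and 129Ola mice overlap.

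Of 28 MHC genes, 3 were alike and higher and 3 alike and lower, beside 1.5% and 2.9% of all genes, and with slide as a random block 1 was in each direction. That block left 152 of 306 higher and 303 of 590 lower alike calls over all genes. H2-Aa, a class II chain, had levels of -1.68, -2.81, -3.71 and -2.22 in DBA mice, against 1.03, 0.93, 1.05 and 2.48 in B6 mice. It was not well above background in any C3H mouse, against 2.74, 2.30, 2.08 and 2.42 in 129Ola mice, and so its signal was at least 42.3-fold lower in C3H. No second probe of H2-Aa was tested. The part of strain sequence differences under the probe in this result was not tested. H2-K1 differed by -1.78 and -0.33 and H2-DMb1, which loads peptides, by -0.94 ± 0.27 and -1.39 ± 0.27, a call lost without B6 15. The alike and higher members were B2m, the light chain of class I (0.53 and 0.34), Tap2, a peptide transporter (0.62 and 0.32), and H2-T24 (0.89 ± 0.16 and 1.92 ± 0.16), of which another probe gave 0.63 (adjusted p = 0.186) and 1.5. H2-Q1 was opposite, at least 13.2-fold lower in DBA than in B6 and 2.46 ± 0.40 higher in C3H than in 129Ola. As background, B6 and 129 mice share an H2 haplotype that DBA/2 and C3H mice do not carry.

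Interferon-stimulated genes were divided between the pairs, with 7 of 42 lower and 0 higher in DBA and 19 higher and 1 lower in C3H, beside 8.64% lower and 7.62% higher of all genes in DBA and 16.1% and 23.9% in C3H. Without B6 15, 4 were lower in DBA. With slide as a random block 4 were lower in DBA and 8 higher in C3H, and with scan day as a block 3 were lower and 1 higher in DBA. Over all genes, lower calls in DBA numbered 1758, then 1501 without B6 15, 1294 with the slide block and 1481 with scan day. Higher calls in C3H numbered 3285, then 1528 with the slide block. The opposite members included Ifi27l2b (-1.03 ± 0.24 and 1.33 ± 0.24) and Xaf1 (-0.73 and 1.93). Tgtp1 was counted as the other one, but it was above background on 1 C3H array and no 129Ola array, so that no difference is given, and its call was lost after normexp and with scan day as a block. Igtp, an immunity-related GTPase, was alike (0.91 ± 0.28 and 0.79 ± 0.28), a call lost under 16 of 27 alternatives.

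Of 32 stellate cell and matrix genes, 7 were lower in DBA and higher in C3H, beside 1.94% of all genes, and 2 were opposite the other way, beside 2.44%. Col1a1, a chain of type I collagen, had levels of 0.25, -0.51, -0.65 and -0.28 in DBA mice, against 1.29, 0.92, 1.21 and 1.70 in B6 mice, and of 0.44, 1.05, 1.31 and 1.34 in C3H mice, against -0.17, 0.26, -0.08 and 0.64 in 129Ola mice. The second pair overlaps at C3H 1 and 129Ola 9. Col1a2 differed by -0.75 and 0.52. Timp1, a protease inhibitor, was at least 2.33-fold lower in DBA than in B6, and with 1 of 4 C3H arrays and no 129Ola array above background it gave no bound in C3H. With slide as a random block 0 members were lower in DBA and higher in C3H. Of 29 proliferation genes, 5 were opposite in the same direction, beside 1.94% of all genes (2 with slide as a random block and 1 after normexp). Over all genes such calls numbered 394, then 197 with the slide block and 279 after normexp. Mcm6, of the replicative helicase, had levels of 1.96, 0.41, 0.62 and 1.45 in DBA mice, against 3.07, 2.78, 2.87 and 2.80 in B6 mice, and of 2.91, 2.71, 2.70 and 3.62 in C3H mice, against -0.35, -0.05, -0.31 and 0.75 in 129Ola mice.

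Single genes with opposite levels included Serpina12, the adipokine vaspin, which was at least 13.0-fold lower in DBA than in B6 and at least 8.98-fold higher in C3H than in 129Ola. Tff3, a mucosal trefoil peptide on the cholangiocyte list, had levels of 4.73, 3.10, 3.51 and 3.08 in DBA mice, against 5.43, 5.03, 6.11 and 6.51 in B6 mice, and of 6.64, 5.51, 6.22 and 6.81 in C3H mice, against -1.52, -0.93, -1.85 and 0.42 in 129Ola mice. The 129Ola mice stood far below the others. The opposite call of Tff3 was lost with scan day as a block. Trib3, a stress-induced pseudokinase, differed by 1.29 ± 0.32 and -2.12 ± 0.32.

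Alike differences were also seen in genes on the lists of other cell types. The endothelial genes Dnase1l3 (-1.32 ± 0.14 and -0.70 ± 0.14), Gpr182 (-0.52 ± 0.11 and -0.39 ± 0.11) and Cdh5 (-0.35 ± 0.09 and -0.38 ± 0.09) were lower, while Lyve1 and Clec4g were opposite. With slide as a random block only Dnase1l3 of these 5 kept its call. The marker Stab2, a scavenger receptor, was higher in DBA (0.47, adjusted p = 0.0291) and not called in C3H (-0.33). The summed level of 6 endothelial markers lay between 85.4 and 105 in DBA mice and 89.7 and 103 in B6 mice, and between 100 and 124 in C3H mice and 108 and 133 in 129Ola mice. The cholangiocyte genes Spp1 (-1.93 ± 0.17 and -0.62 ± 0.17) and Krt23 (-1.86 ± 0.52 and -3.79 ± 0.52) were lower, but neither was alike with slide as a random block. The keratins that mark cholangiocytes were not called in either pair, Krt19 at -0.51 and -0.37 and Krt7 at -0.18 and 0.43. The erythroid genes Hbb-b2, a beta globin (2.05 ± 0.36 and 1.57 ± 0.36), and Klf1 (1.15 ± 0.23 and 0.78 ± 0.23) were higher (Klf1 not with slide as a random block), while Hba-a1 and Hbb-b1 were higher in C3H alone (1.56 and 1.34). The summed level of 3 erythroid markers lay between 133 and 439 in DBA mice and 175 and 234 in B6 mice, and between 428 and 635 in C3H mice and 180 and 248 in 129Ola mice. Adrb3, the adrenergic receptor of fat cells, was alike and higher (1.60 ± 0.21 and 3.58 ± 0.21), and another probe gave 2.41 and 4.23. Adipoq, Plin1 and Lep, which define adipocytes, did not pass the filter, while the marker Cfd, or adipsin, was higher in C3H (2.16, adjusted p = 0.0224) and not called in DBA (0.84). The summed level of 9 adipocyte genes, Adrb3 among them, lay between 27.2 and 30.2 in DBA mice and 15.8 and 19.0 in B6 mice. In C3H mice it lay between 36.3 and 51.3, and in 129Ola mice between 18.6 and 57.8. Because the sum holds Adrb3, it is not a separate measure of adipocytes. The part of adipocyte RNA in the Adrb3 result was not tested.

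Dnajc3, a chaperone of the endoplasmic reticulum, was lower (-0.90 ± 0.15 and -1.29 ± 0.15). Pdia4 was higher (0.57 ± 0.17 and 0.49 ± 0.17), a call lost under 12 of 27 alternatives. Apcs, serum amyloid P, was higher (2.20 ± 0.24 and 0.80 ± 0.24), a call lost with slide as a random block and without C3H 1. Abcc4, a bile acid exporter, was lower (-1.40 ± 0.23 and -1.20 ± 0.23). Pygl, liver glycogen phosphorylase, was lower (-0.43 ± 0.11 and -0.55 ± 0.11), a call lost without DBA 9. The oxidative phosphorylation list had 4 of 50 higher and 0 lower in DBA and 0 higher and 21 lower in C3H. The shares over all genes were 7.62% and 8.64% in DBA and 16.1% and 23.9% in C3H. But after quantile normalization 8 were higher and 5 lower in C3H, so that no direction is given.

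**Figure D5:**
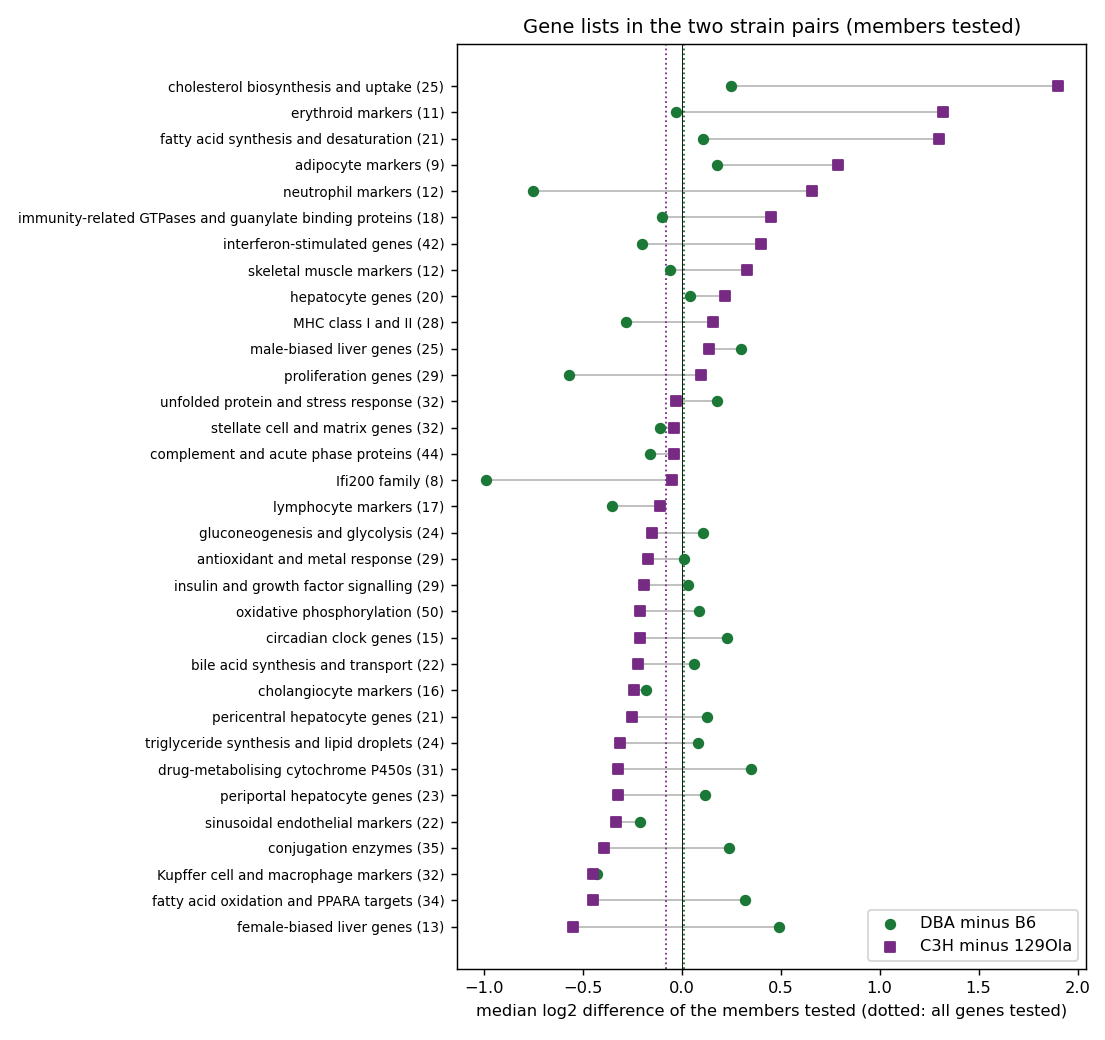
Median log2 difference of the tested members of each gene list for DBA minus B6 (circles) and C3H minus 129Ola (squares), with dotted lines at the medians over all genes tested (0.01 and -0.08). Cholesterol biosynthesis lies at 0.25 and 1.90, fatty acid oxidation at 0.32 and -0.45, and macrophage markers at -0.43 and -0.45.

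By chromosome, the share of tested genes that were alike was 6.13% on chromosome 4, 5.96% on chromosome 7 and 5.42% on chromosome 6. It was 2.45% on the X chromosome and lowest on chromosome 18, at 1.59%. Over all genes tested, 1.5% were alike and higher and 2.9% alike and lower. The share that was opposite was 5.93% on chromosome 1, 5.58% on chromosome 17 and 2.16% on the X chromosome. Over all genes tested, 2.44% were opposite with DBA higher and 1.94% with DBA lower. On chromosome 7, a run of 5 consecutive features from 107688028 to 107910158, with Coa4, Mrpl48, Rab6a and Plekhb1, was alike and lower. Of 359 other tested probes of alike genes, 250 (69.6%) had the same signs in both pairs and 103 were also called in both. Of 364 other probes of opposite genes, 230 (63.2%) had the same signs and 87 were called in both.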

How the data were processed

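RNA of 20 livers had been measured on 1-colour Agilent arrays; 16 are used here. Per the file headers, the authors' deposited scanner files hold the processed signal intensity of each spot after Agilent's own background correction (software 11.0.1.1 for DBA and B6, 11.5.1.1 for C3H and 129Ola; the submitters' processing notes name Feature Extraction 9.1). The authors' deposited value table holds linear intensity with identical sorted values in its columns and served as an alternative.

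Control spots and outlier flags were left out, and spots of a probe were averaged. The log2 intensity minus each array's 75th percentile was used. Of 55644 probes, those that the software called well above background in every mouse of 1 or more of the 4 strains were kept, and the brightest probe stood for a gene, leaving 20342 genes or unnamed features. Levels were fitted with limma 3.58.1 in R 4.3.3 (lmFit and eBayes, 12 residual degrees of freedom, no covariates), with Benjamini-Hochberg adjustment and a threshold of 0.05. The number of arrays limits the precision. The labels do not say that mice came from separate litters or cages, so p-values measure the spread between these mice. The code was tested on simulated data.

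The comparison and its 33 gene lists were chosen with earlier results of these data known. Genes were named by rule: the 8 largest alike genes in each direction by the smaller difference, 4 measured on one side only in each direction, 6 opposite in each direction, and up to 3 alike and 2 opposite in each list. Unnamed, predicted and RIKEN features were skipped in these rankings, except in the lists. Other list members named were chosen after their values were seen. Some genes that the rule names are not reported here. Probe positions are mm9. Animal numbers did not pair mice: correlations of deviations were -0.34, 0.02 and 0.07 for DBA 9 and B6 9, DBA 15 and B6 15, and C3H 5 and 129Ola 5.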

Additional observations from a re-analysis of the deposited data

Results flagged for a closer look

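The difference of the pairs, (DBA minus B6) minus (C3H minus 129Ola), was itself past the threshold (limma, adjusted p below 0.05) for the following named genes, given on the log2 scale. Genes that no array of some strain measured above background are left out, since their differences are bounds. Choosing opposite genes fixes this for them, so these values are a description. Among opposite genes with a positive difference, Cyp4a14 stood at 10.84, Serpina3i at 9.29, Ugt1a10 at 7.45, Sult1e1 at 7.32, Sfi1 at 7.08 and Cyp2b10 at 5.46. In lipid and drug metabolism, Cyp4a10 stood at 4.47, Gstt2 at 3.93, Cyp1a2 at 2.67, Cyp2c38 at 2.52, Cyp4a12b at 2.16, Gsta4 at 2.12, Hsd17b6 at 2.12, Cyp2u1 at 1.83 and Acox2 at 1.04. Trib3 stood at 3.41, the amino acid transporter Slc1a4 at 2.68, Nnt at 2.30, Pigr, which carries immunoglobulin across epithelia, at 1.41 and Sdhb, a subunit of succinate dehydrogenase, at 0.63. The other Cyp2u1 probes gave 0.28 and 0.35 and another Pigr probe 0.56, none of them called. Sdhb lost its opposite call under 21 of 27 alternatives, while another probe of it gave 0.91 and was called.

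Negative differences were found for Tff3 (-9.43), Olfr1535 (-8.39), Ripply2 (-6.49), Crygn (-5.97), Klk1b8 (-5.81), Klk1b3 (-5.78), Scd1 (-5.34) and Scd3 (-5.32). The helicase subunit Mcm6 stood at -4.74, and the sterol genes Hmgcs1 and Sc5d at -3.44 and -1.61. Lyve1 stood at -3.19, H2-T3 at -2.88, Marco at -2.82, Col1a1 and Itgam at -2.45, Ifi27l2b at -2.36, Car2, a carbonic anhydrase, at -1.62 and Clec4g at -0.83.

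Alike genes that differed in size between the pairs were Gsta2 (3.72), Apcs (1.40), Wfdc15b (1.12), Mrpl35 (0.93) and Cyp2c23 (0.91). With the other sign they were Msmo1 (-2.15), Adrb3 (-1.98), Cx3cr1 (-1.47), Cd52 (-1.41), Spp1 (-1.31), H2-T24 (-1.02) and Dnase1l3 (-0.62).

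A single mouse lay far from the other 3 of its strain in 21 of 412 groups examined (Dixon's test), and chance flags about 1 in 20. B6 15 was that mouse in 8. Its level was 2.48 for H2-Aa (others 0.93 to 1.05), 2.21 for H2-DMb1 (others 0.93 to 1.11), 3.91 for C1qb (others 3.28 to 3.32) and 2.22 for Ccl5 (others 1.47 to 1.57). It was 3.87 for Hsd17b6 (others 2.87 to 2.95), 0.51 for Tpm2 (others -0.24 to -0.18), 3.44 for Hbb-b2 (others 3.79 to 3.85) and -1.16 for Serpina12 (others 0.05 to 0.24). DBA 5 stood at -1.14 for Osbpl3 (others 0.02 to 0.11), 0.28 for Corin (others 0.49 to 0.52) and 0.79 for Olfr1535 (others -1.62 to -1.31). B6 10 stood at 2.06 for Olfr1535 (others 2.40 to 2.46) and -1.63 for Cx3cr1 (others -0.92 to -0.86). DBA 9 stood at 1.90 for Sfi1 (others 2.41 to 2.44) and -4.21 for Serpina12 (others -6.06 to -5.77), and DBA 15 at -5.24 for Cela2a (others -6.21 to -6.09). No DBA array measured Serpina12 or Cela2a above background. C3H 1 stood at 2.71 for C1qb (others 1.72 to 1.73) and -1.83 for Krt23 (others -0.74 to -0.53). 129Ola 7 stood at 7.08 for Cyp4a10 (others 5.76 to 5.84) and -2.92 for Gpx6 (others -2.07 to -1.92), and 129Ola 9 at 6.03 for Sc5d (others 5.45 to 5.54).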

How the results depend on the processing

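Slide as a random block left 455 alike and 446 opposite genes, and 3672 calls in C3H against 129Ola, 3154 in the class contrast and 3168 in the difference of the pairs. Normexp left 4901 calls in C3H against 129Ola and 4014 in the difference of the pairs. Asking for at least 2-fold in both pairs left 211 alike and 309 opposite genes. Leaving out single mice gave 2778 to 3952 calls in DBA against B6, 6577 to 9026 in C3H against 129Ola, 4961 to 6094 in the class contrast, 5012 to 7616 in the difference of the pairs, 741 to 918 alike genes and 723 to 1368 opposite genes, the last without DBA 5. With the animal number as a replicate block, which pairs few mice and leaves 2 residual degrees of freedom, 348 genes were called in DBA against B6, 62 in C3H against 129Ola, 109 in the class contrast and 234 in the difference of the pairs, with 12 alike and 10 opposite genes. Another probe turned the difference of the pairs to 0.11 for Itgam and to -1.04 for Serpina3i. The cause of these changes was not tested. Of 2864 values of the 103 named genes under alternatives, 2776 kept direction and side of the threshold. Such a value is not the alike or opposite call, which needs both pairs. With slide as a random block all 103 values were kept, though many calls were lost. Apart from the replicate block, 51 of the 103 kept their alike or opposite call under all alternatives in which they were tested. Genes near background have little signal to measure, and the C3H and 129Ola arrays had the fewest probes above it.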
